A study of Mus musculus with 9 samples.

Results

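Cystine import and glutathione synthesis were followed through 7 genes in NIH/3T3 cells, an established mouse embryonic fibroblast line, irradiated with UVA with or without alpha-arbutin. The 7 genes, of 56691 in the table, were Slc7a11, Gclc, Gclm, Gss, Gsr, Glrx and Abcc1. They were chosen by their role in making, reducing, using and exporting glutathione, and with the fold changes and calls of these same libraries already known. Their values are therefore given as a description, with no test of the list and no p-value for a member. Where a member is said to be called or not, or is given an interval, this too is description. It is no independent support for a change in that gene, since the calls were known at the choice. All 7 were found, with 1 row each, and all 7 passed the filter on low counts, as did 14151 genes in all.

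Each of 3 groups had 3 libraries from wild-type cells. Co-treated cells received UVA at 10 J/cm2 and alpha-arbutin, a glucoside of hydroquinone; UVA cells received that UVA dose alone, under titles that read MOCK; control cells have no treatment entered. The sources used here do not give the dose or timing of alpha-arbutin or the interval to harvest. Nor do they say if each library came from its own culture, so errors and p-values measure the spread between these libraries, which may be technical. The design text names DNA repair and collagen synthesis as the main interests, and asks whether alpha-arbutin counters photodamage. No group was labelled as given alpha-arbutin without UVA, so its action by itself was not tested and cannot be told apart from a countering of UVA.

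Glutathione, the tripeptide of glutamate, cysteine and glycine, is the main small thiol of the cytosol, and cysteine is usually the scarce part. Fibroblasts in culture take it up largely as cystine through the exchanger system xc-, in which the Slc7a11 product, xCT, works with the heavy chain encoded by Slc3a2 and sends out glutamate. Glutamate-cysteine ligase, a catalytic subunit (Gclc) with a modifier subunit (Gclm), joins the first pair of amino acids in the rate-limiting step; glutathione synthetase (Gss) adds glycine. Glutathione reductase (Gsr) returns the oxidised form to the reduced one with NADPH, glutaredoxin (Glrx) removes glutathione from protein thiols, and the transporter MRP1 (Abcc1) exports oxidised glutathione and conjugates. The transcription factors NRF2 and ATF4 are both known as activators of Slc7a11, and NRF2 of Gclc and Gclm.

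Promoter windows from RefSeq on GRCm38.p6 (250 bases before to 50 bases after the start site) were at hand for 4 of the 7 genes, namely Slc7a11, Gclm, Gss and Glrx. They were searched on both strands for the motifs spelled out here. The core TGATGCAA, bound by ATF4 with its partners, was in 0.895% of 32851 windows of this length, and among the 4 genes Slc7a11 alone held it, in 2 copies. The copies lie on opposite strands and begin 66 and 47 bases before the start site. The core TGACNNNGC of the antioxidant response element, bound by NRF2 with small MAF proteins, was in 12.4% of windows and, of the 4, in Gclm, on the opposite strand, 134 bases before the start site. The AP-1 element TGANTCA was in 7.81% of windows and in Glrx, and the GC box GGGCGG in 35.7% and in Gclm and Gss. The AP-1 pattern reads the same on both strands, and no letters were shared between these matches. A match is a description of letters and not a measured site of binding. The stretches that hold the first 3 motifs are shown for the genes whose levels are contrasted below: Slc7a11 (chr3:50443634-50443733, minus strand), Gclm (chr3:122245407-122245506, plus strand) and Glrx (chr13:75839765-75839864, plus strand), with the matched letters in capitals.
Slc7a11: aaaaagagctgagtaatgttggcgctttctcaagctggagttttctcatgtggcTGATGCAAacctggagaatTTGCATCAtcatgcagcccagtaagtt
Gclm: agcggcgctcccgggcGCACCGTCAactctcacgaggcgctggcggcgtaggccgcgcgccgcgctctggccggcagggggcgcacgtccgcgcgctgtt
Glrx: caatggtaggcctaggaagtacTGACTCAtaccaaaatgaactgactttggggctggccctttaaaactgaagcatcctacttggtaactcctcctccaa

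Library totals, in units of 1e6 counts, ran between 16.3 and 20.86, and mitochondrial genes took 3.76 to 4.01% of counts in co-treated, 3.87 to 3.89% in UVA and 3.52 to 3.72% in control libraries. The fibroblast markers summed to 6079 to 6343 CPM (counts scaled to a common library total with TMM factors) in co-treated, 6369 to 6655 CPM in UVA and 8317 to 8569 CPM in control libraries. Of 10 fibroblast markers 9 were tested, and they went different ways in UVA against control: 7 fell (Col1a1, Col1a2, Col3a1, Thy1, Pdgfra, Pdgfrb and Postn), Vim rose, at 0.40 ± 0.04 on the log2 scale (adjusted p = 4.91e-10), and S100a4 was at 0.07 ± 0.04 (adjusted p = 0.17). Fap and Postn were near 0. Epithelial markers summed to at most 4.59 CPM in any library, endothelial to at most 5.92, immune to at most 5.85, muscle to at most 3.36 and melanocyte to at most 0.813; Epcam, Krt5, Cd3e, Myod1 and Dct had no counts. Adipocyte markers, nearly all Lpl, summed to 15.7 to 18.6 CPM in co-treated, 14.0 to 17.2 in UVA and 31.5 to 33.5 in control libraries. The part of these shifts in the values below was not tested. In bulk RNA, fewer cells with a transcript and less of it per cell cannot be told apart.

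The 7 genes followed different courses over the 3 groups. Slc7a11 was lower in UVA cells than in control cells and overlapped the control libraries in co-treated cells. Gclc and Gclm were higher in UVA cells than in control cells and had their highest means in co-treated cells. Neither was called in co-treated against UVA in the fit of all libraries, and for Gclm those groups overlapped. Gss and Gsr were higher in both irradiated groups than in control cells and close to each other with and without alpha-arbutin. Abcc1 was slightly lower in UVA cells than in the other two groups, and the Glrx libraries of all 3 groups overlapped.

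**Figure D1:**
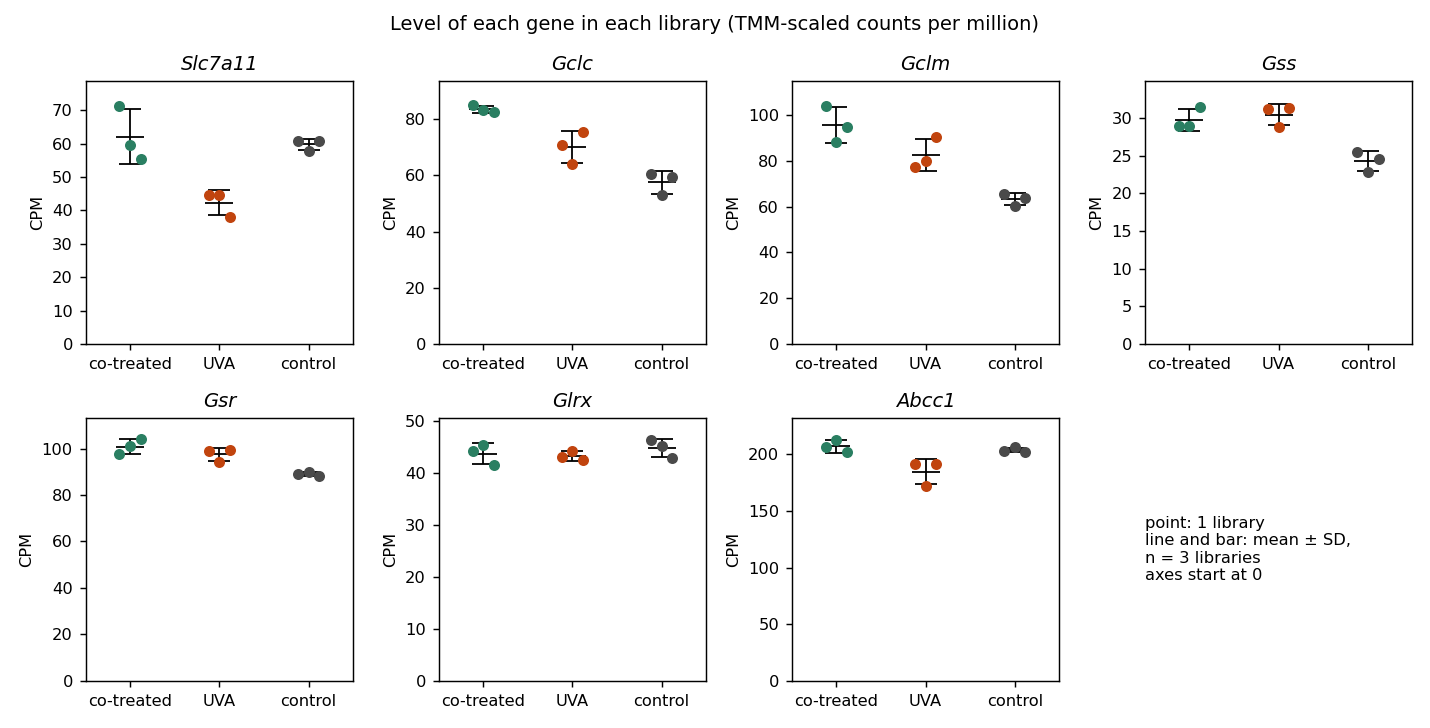
Level of each of the 7 genes in CPM (y axis, from 0) in the 3 co-treated, 3 UVA and 3 control libraries (points), with mean ± SD (n = 3). The UVA points of Slc7a11, at 37.9 to 44.7 CPM, lie below all other points of that gene, while Gclc and Gclm have their highest means in co-treated cells and their lowest in control cells, and the points of Glrx overlap throughout.

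Slc7a11 (ENSMUSG00000027737; mm39 chromosome 3, 49846975 to 50398063, minus strand) had 71.2, 59.5 and 55.3 CPM in co-treated libraries, 44.5, 44.7 and 37.9 CPM in UVA libraries, and 60.8, 57.7 and 60.7 CPM in control libraries. Every UVA library was below every co-treated and every control library, while co-treated and control libraries overlapped. The co-treated libraries were also the most spread, with replicate 1 the highest of all 9. On the log2 scale the fitted difference of UVA from control was -0.50 ± 0.08 (SE, with a 95% interval of -0.66 to -0.34), a level of 0.707 of control. Co-treated against UVA gave 0.55 ± 0.08 (0.39 to 0.71), a 1.46-fold higher level, and co-treated against control gave 0.05 ± 0.07 (-0.10 to 0.20). The first and second of these comparisons share the UVA libraries. Without co-treated replicate 1 the difference from UVA cells was 0.44 and still called, and that from control cells was -0.06.

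In the table Slc7a11 spans 551 kb with 13.9 kb of exonic sequence. Of 5 predicted genes that overlap it, 2 had counts, 14 and 3 over all libraries, against 8823 for Slc7a11. By edgeR's quasi-likelihood test with Benjamini-Hochberg adjustment over all genes (called below 0.05), Slc7a11 was called lower in UVA cells and higher in co-treated than in UVA cells. In the second comparison 5 genes were called in all. The second call ended when limma was run on log2(FPKM + 1), on log2(FPKM + 0.1) or on log2(TPM + 1) (0 genes called in each). Its log2 fold change was at least 0.43 under every alternative run.

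Gclc (ENSMUSG00000032350; chromosome 9, 77661817 to 77701767), the catalytic subunit of glutamate-cysteine ligase, had 84.9, 83.0 and 82.5 CPM in co-treated libraries, 70.8, 64.0 and 75.4 CPM in UVA libraries, and 60.3, 52.9 and 59.2 CPM in control libraries. No groups overlapped, and the co-treated libraries were the tightest, at 83.5 ± 1.28 CPM against 70.1 ± 5.73 CPM in UVA and 57.4 ± 4.01 CPM in control cells (SD, n = 3). The log2 fold change was 0.29 ± 0.06 for UVA against control (95% interval 0.16 to 0.41), which was called. Co-treated against UVA gave 0.25 ± 0.06 (0.13 to 0.37), which was not called over all genes. It was called with no filter on low counts and without UVA replicate 3, the highest UVA library, where the value was 0.31. Co-treated against control gave 0.54 ± 0.06 (0.41 to 0.66), a 1.45-fold higher level, and was called.

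Gclm (ENSMUSG00000028124; chromosome 3, 122039206 to 122064381), the modifier subunit that raises the ligase's affinity for glutamate and eases feedback inhibition, had 104, 88.1 and 94.5 CPM in co-treated libraries, 77.1, 79.9 and 90.2 CPM in UVA libraries, and 65.6, 60.4 and 63.8 CPM in control libraries. Both irradiated groups lay above all control libraries, and UVA replicate 3 lay inside the co-treated range. UVA against control gave 0.38 ± 0.06 (0.25 to 0.51) and was called. Co-treated against UVA gave 0.21 ± 0.06 (0.09 to 0.34), not called in the fit of all libraries but called, at 0.28, without UVA replicate 3. Co-treated against control gave 0.59 ± 0.06 (0.47 to 0.72), a 1.51-fold higher level and the highest value of the 7 genes in that comparison. Gclm overlaps Gm17494 on the other strand, which had 551 counts over all libraries against 12965 for Gclm.

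The ratio of Gclm to Gclc in FPKM was 0.734, 0.635 and 0.686 in co-treated libraries, 0.652, 0.747 and 0.716 in UVA libraries, and 0.652, 0.684 and 0.646 in control libraries, so that the 3 groups overlapped. The ratio of the synthetase to the ligase's catalytic subunit, Gss over Gclc in FPKM, was 0.216, 0.221 and 0.242 in co-treated libraries, against 0.280, 0.286 and 0.264 in UVA libraries and 0.269, 0.274 and 0.265 in control libraries. The co-treated libraries were thus below both other groups, which overlapped each other.

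Gss (ENSMUSG00000027610; chromosome 2, 155405101 to 155434730), glutathione synthetase, had 28.9, 28.9 and 31.4 CPM in co-treated libraries, 31.2, 28.8 and 31.3 CPM in UVA libraries, and 25.5, 22.8 and 24.6 CPM in control libraries. Irradiated libraries of both kinds were above all control libraries and overlapped each other. The log2 fold change was 0.32 ± 0.08 for UVA against control (0.17 to 0.48) and 0.29 ± 0.08 for co-treated against control (0.13 to 0.45), both called. It was -0.03 ± 0.08 for co-treated against UVA, with an interval of -0.19 to 0.12. Gss shares 22544 bases of its locus with Acss2 on the other strand, and whether counting used strand is not given in the sources used here. Acss2 had 869 counts in co-treated, 1139 in UVA and 1590 in control libraries, against 1539, 1654 and 1359 for Gss in the same groups, and was lower in both irradiated groups than in control.

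Gsr (ENSMUSG00000031584; chromosome 8, 34142551 to 34188191), glutathione reductase, had 97.6, 101 and 104 CPM in co-treated libraries, 98.9, 94.4 and 99.3 CPM in UVA libraries, and 89.2, 90.0 and 88.0 CPM in control libraries. As for Gss, both irradiated groups lay above control and overlapped each other. The log2 fold change was 0.13 ± 0.05 for UVA against control (0.03 to 0.23) and 0.18 ± 0.05 for co-treated against control (0.08 to 0.28), both called, with 0.05 ± 0.05 between co-treated and UVA cells (-0.05 to 0.14). The call in UVA cells was lost without any 1 of the control libraries (0.12 to 0.15 over all leave-outs) or without UVA replicate 1 or 3, with DESeq2, with no filter, and with limma on log2(TPM + 1), where the value was 0.08.

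Glrx (ENSMUSG00000021591; chromosome 13, 75987987 to 75998273), cytosolic glutaredoxin, had 44.2, 45.4 and 41.5 CPM in co-treated libraries, 43.1, 44.2 and 42.4 CPM in UVA libraries, and 46.4, 45.2 and 42.9 CPM in control libraries. All 3 groups overlapped and no comparison was called. The intervals were -0.18 to 0.08 for UVA against control, -0.11 to 0.14 for co-treated against UVA and -0.16 to 0.09 for co-treated against control, on the log2 scale.

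Abcc1 (ENSMUSG00000023088; chromosome 16, 14179422 to 14293601), which encodes MRP1, had 206, 213 and 202 CPM in co-treated libraries, 191, 172 and 191 CPM in UVA libraries, and 203, 206 and 202 CPM in control libraries. The UVA libraries were below all others, and co-treated and control libraries overlapped. UVA against control gave -0.14 ± 0.04 (-0.23 to -0.05), called, but not without UVA replicate 2, the lowest library (-0.09), nor without control replicate 2. Co-treated against UVA gave 0.16 ± 0.04 (0.07 to 0.25), not called, and co-treated against control gave 0.02 ± 0.04 (-0.07 to 0.11), also not called. As for Slc7a11, the UVA cells had the lowest level and co-treated and control cells overlapped.

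**Figure D2:**
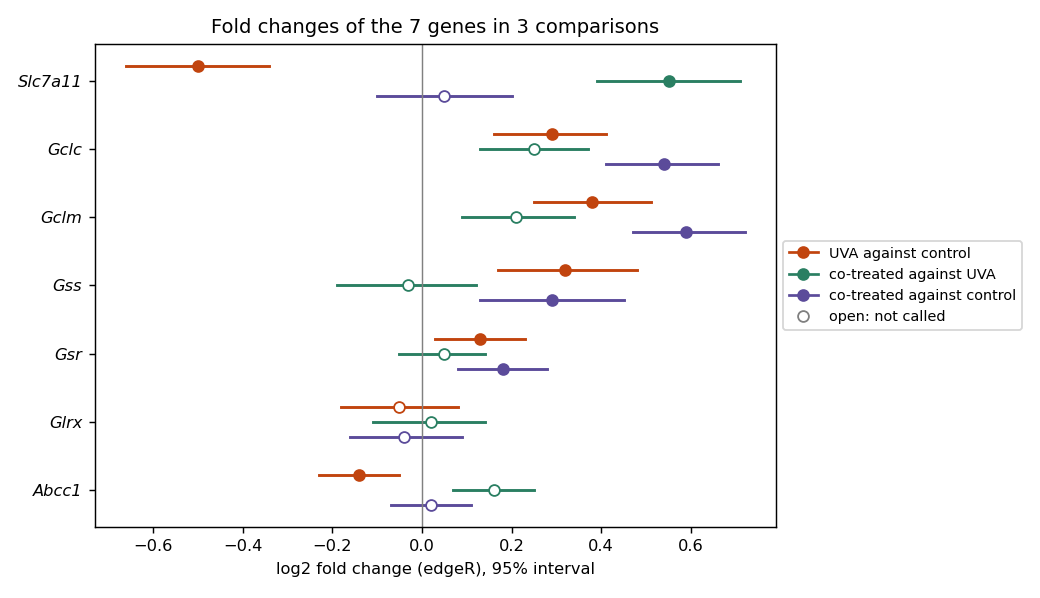
Log2 fold change (x axis) of the 7 genes in each of the 3 comparisons between groups, with 95% intervals (lines); filled points were called over all 14151 genes and open points were not. Slc7a11 lies at -0.50 in UVA and at 0.55 in co-treated against UVA cells, while Gclc and Gclm lie above 0 in all 3 comparisons.

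Counted over the 7 genes, UVA against control called 4 higher and 2 lower, where 14.7% of all tested genes were called higher and 14.6% lower; the median log2 fold change was 0.13, and 0.00 over all tested genes. In 6 of the 7 the UVA and control libraries did not overlap, as in 42.0% of tested genes. Co-treated against UVA called 1 higher and 0 lower by edgeR, against 0.0283% and 0.00707% of tested genes; at an unadjusted p under 0.05 there were 4 higher and 0 lower, and DESeq2 also called 1. The median was 0.16, and 0.00 over all tested genes, and 3 of the 7 (Slc7a11, Gclc and Abcc1) did not overlap between the groups, as in 10.8% of tested genes. Co-treated against control called 4 higher and 0 lower by edgeR, also 4 and 0 at an unadjusted p under 0.05 and with DESeq2, against 13.0% and 12.9% of tested genes, with a median of 0.18 against 0.00 and 4 of 7 not overlapping against 39.7%. Because these comparisons were known when the 7 genes were chosen, nothing is read from these counts.

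Levels between genes can be compared per length, in FPKM (the authors' counts scaled for exonic length and library total). In control cells the order was Gsr at 32.5 ± 0.454, Gclc at 15.3 ± 1.06, Abcc1 at 13.6 ± 0.165, Gclm at 10.1 ± 0.423, Glrx at 8.20 ± 0.337, Slc7a11 at 4.31 ± 0.122 and Gss at 4.13 ± 0.238 FPKM (SD, n = 3). Only Slc7a11 and Gss overlapped there between neighbours. In UVA cells Gclm, at 13.0 ± 1.12, stood ahead of Abcc1, at 12.2 ± 0.710, with overlap, and Slc7a11 was last, at 3.02 ± 0.272, below Gss at 5.11 ± 0.241 without overlap. In co-treated cells Gclm was at 15.2 ± 1.29 and Abcc1 at 13.7 ± 0.362 FPKM, again overlapping, and Slc7a11, at 4.45 ± 0.595, overlapped Gss, at 5.02 ± 0.237. Averaged over all libraries, Gsr was above 89.9% of tested genes and Slc7a11 above 41.6%.

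Slc3a2, the partner chain of xCT, had 160, 150 and 148 CPM in co-treated libraries, 140, 152 and 139 CPM in UVA libraries, and 190, 175 and 185 CPM in control libraries. It fell in UVA against control, at -0.35 ± 0.05 (adjusted p = 1.06e-06), and was at 0.09 ± 0.05 in co-treated against UVA cells, not called (adjusted p = 0.78). In FPKM, Slc7a11 over Slc3a2 was 0.113, 0.10 and 0.0946 in co-treated libraries, 0.0804, 0.0745 and 0.0689 in UVA libraries, and 0.0809, 0.0836 and 0.0831 in control libraries. The ratio was thus above control in every co-treated library and below it in every UVA library, though only by 0.0804 against 0.0809 in UVA and control replicate 1. In co-treated against control, Slc3a2 was itself lower, at -0.26 ± 0.05 (edgeR, adjusted p = 8.78e-05), while Slc7a11 was at 0.05 ± 0.07. The higher ratio in co-treated libraries is therefore no sign that Slc7a11 rose above control. Slc3a2 also pairs with other amino acid transporters, so its product serves more than cystine import.

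The rest of the pathway was read from 56 genes listed by role, 41 of them tested. In UVA against control 9 rose (22%) and 12 fell (29.3%), where 14.7% and 14.6% of all tested genes did. The median log2 fold change was 0.08 against 0.00 over all tested genes. These calls come from edgeR's test with Benjamini-Hochberg adjustment over all tested genes. That test also gives every adjusted p of the listed genes, except where another method or setting is named beside the value. In co-treated against UVA edgeR called 0 of the 41; unadjusted, 5 had a p under 0.05 with a higher level and 1 with a lower one, and DESeq2 called 1, Esd. In co-treated against control 11 rose (26.8%) and 10 fell (24.4%), where 13.0% and 12.9% of all tested genes did, with a median of 0.03 against 0.00. The lists were drawn up with these results known, and nothing particular to them is read from these shares.

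Among 9 tested transporters of cystine, its partner amino acids and glutathione, 5 fell (55.6%) and 1 rose (11.1%) in UVA against control, where 14.6% and 14.7% of all tested genes did. Slc6a9, the glycine transporter GlyT1, fell at -0.50 ± 0.08 (adjusted p = 3.12e-05), while Slc38a2, a carrier of small neutral amino acids, rose at 0.31 ± 0.05 (adjusted p = 8.09e-06). In co-treated against UVA cells the smallest p belonged to Slc1a4, an exchanger of alanine, serine and cysteine, with 103, 103 and 101 CPM in co-treated against 97.6, 84.9 and 83.9 CPM in UVA libraries. Its value was 0.21 ± 0.05 (adjusted p = 0.323), and it was called without UVA replicate 1 at 0.28 (adjusted p = 0.0331). Slc6a9 was at 0.24 ± 0.09 (adjusted p = 0.627), with 0.13 without UVA replicate 3, 0.15 without co-treated replicate 1 and 0.34 at the highest with another library left out.

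Cysteine can also be made from methionine by transsulfuration. Cth, cystathionine gamma-lyase, which releases cysteine in its last step, had 37.9, 35.2 and 31.4 CPM in co-treated libraries, 33.3, 34.4 and 23.6 CPM in UVA libraries, and 50.1, 50.6 and 54.4 CPM in control libraries. Both irradiated groups lay below control and overlapped each other. Cth fell at -0.77 ± 0.09 in UVA against control (adjusted p = 1.95e-07), the largest decrease among the 41 genes, and was at 0.20 ± 0.10 in co-treated against UVA (adjusted p = 0.735). That value was 0.04 without UVA replicate 3, the lowest library, and 0.29 at the highest with another library left out. Cbs, the enzyme before it, averaged 0.0386 CPM in co-treated, 0.0951 CPM in UVA and 0.113 CPM in control libraries and was not tested. In the methionine cycle Ahcy, which hydrolyses S-adenosylhomocysteine, fell at -0.20 ± 0.05 (adjusted p = 0.00452), and Mat2a, which makes S-adenosylmethionine, rose at 0.13 ± 0.04 (adjusted p = 0.00919). The Mat2a call ended without control replicate 3 (adjusted p = 0.0527) or UVA replicate 1 (adjusted p = 0.0562) and with limma on log2(TPM + 1) (adjusted p = 0.125). Mtr, methionine synthase, was at 0.07 ± 0.06 in co-treated against UVA (adjusted p = 0.892), and between 0.01 and 0.11 with 1 library left out.

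Of 6 tested genes of glutathione breakdown, 1 fell and 1 rose in UVA against control (16.7% each), close to the 14.6% and 14.7% of all tested genes. Chac1, which cleaves glutathione in the cytosol and is a known ATF4 target, had 31.8, 29.0 and 27.4 CPM in co-treated libraries, 22.6, 27.7 and 24.7 CPM in UVA libraries, and 39.6, 35.7 and 40.1 CPM in control libraries. It fell at -0.62 ± 0.08 (adjusted p = 6.48e-07), and was at 0.23 ± 0.08 in co-treated against UVA cells, not called (adjusted p = 0.627). Cndp2, a dipeptidase that splits cysteinylglycine, rose at 0.39 ± 0.06 (adjusted p = 5.36e-06). Lap3, leucine aminopeptidase, was at 0.08 ± 0.04 in UVA against control (adjusted p = 0.188) and at -0.09 ± 0.04 in co-treated against UVA (adjusted p = 0.727). Gamma-glutamyltransferase genes were not tested: Ggt6 had no counts, and Ggt1, Ggt5 and Ggt7 averaged at most 0.16 CPM in any group.

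In the list of other glutaredoxins, glutathione-dependent enzymes of aldehyde removal and Txndc12, 7 genes were tested. Of these 2 rose (28.6%) and 1, Txndc12, fell (14.3%) in UVA against control, where 14.7% and 14.6% of all tested genes did. Esd, S-formylglutathione hydrolase, had 504, 527 and 531 CPM in co-treated libraries, 437, 458 and 476 CPM in UVA libraries, and 372, 357 and 366 CPM in control libraries. No groups overlapped, an order of levels like that of Gclc. Esd rose at 0.32 ± 0.04 in UVA against control (adjusted p = 2.14e-07) and at 0.51 ± 0.04 in co-treated against control (adjusted p = 3.67e-11). In co-treated against UVA it was at 0.19 ± 0.04 (adjusted p = 0.091), and it was called there with DESeq2 (adjusted p = 0.00213), with no filter (adjusted p = 0.00722), without UVA replicate 3 (adjusted p = 0.0116) and without co-treated replicate 1 (adjusted p = 0.0438). Glrx5, the mitochondrial glutaredoxin of iron-sulfur cluster assembly, rose at 0.28 ± 0.07 in UVA against control (adjusted p = 0.00395) and was at -0.15 ± 0.07 in co-treated against UVA (adjusted p = 0.74). Txndc12, an ER thioredoxin-like protein, fell at -0.33 ± 0.05 (adjusted p = 1.24e-05).

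Of 7 other ABC exporters 4 were tested. Abcc4, which encodes MRP4, rose at 0.30 ± 0.09 (adjusted p = 0.0142) and Abcc5, which encodes MRP5, at 0.14 ± 0.04 (adjusted p = 0.0166) in UVA against control, opposite to Abcc1. Both of these calls ended without control replicate 2 (adjusted p = 0.104 and 0.108) and without UVA replicate 3 (adjusted p = 0.0654 and 0.0894). They also ended with limma on log2(FPKM + 1) (adjusted p = 0.0669 and 0.0731), on log2(FPKM + 0.1) (adjusted p = 0.0682 and 0.0727) and on log2(TPM + 1) (adjusted p = 0.104 and 0.213). Abcg2, an efflux pump of the plasma membrane, fell at -0.30 ± 0.08 (adjusted p = 0.00606), but was not called once UVA replicate 3 was left out (adjusted p = 0.0509). In co-treated against UVA, Abcc4 was at 0.14 ± 0.09 (adjusted p = 0.826) and Abcc5 at 0.06 ± 0.04 (adjusted p = 0.844).

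Of 10 tested regulators, 2 rose and 2 fell in UVA against control (20% each), where 14.7% and 14.6% of all tested genes did. Nfe2l2, which encodes NRF2, had 151, 148 and 154 CPM in co-treated libraries, 163, 159 and 156 CPM in UVA libraries, and 140, 135 and 136 CPM in control libraries. It rose at 0.22 ± 0.04 in UVA against control (adjusted p = 0.000271), and every co-treated library lay below every UVA library, at -0.08 ± 0.04, without a call (adjusted p = 0.791). Mafk, a small MAF partner of NRF2, rose at 0.33 ± 0.06 (adjusted p = 0.000186), and Nfe2l1, a relative of NRF2, fell at -0.34 ± 0.04 (adjusted p = 7.81e-08). Atf4 had 613, 615 and 600 CPM in co-treated libraries, 605, 615 and 564 CPM in UVA libraries, and 662, 637 and 669 CPM in control libraries, and fell at -0.14 ± 0.04 in UVA against control (adjusted p = 0.00518). Keap1, which targets NRF2 for degradation, was at 0.08 ± 0.06 (adjusted p = 0.4), and Bach1, a repressor at the same elements, at 0.12 ± 0.06 (adjusted p = 0.132). In co-treated against UVA the 10 lay between -0.13 and 0.10, with Mafg at 0.10 ± 0.05 (adjusted p = 0.739). These are transcript levels, and both NRF2 and ATF4 are known to be controlled largely at the protein level.

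**Figure D3:**
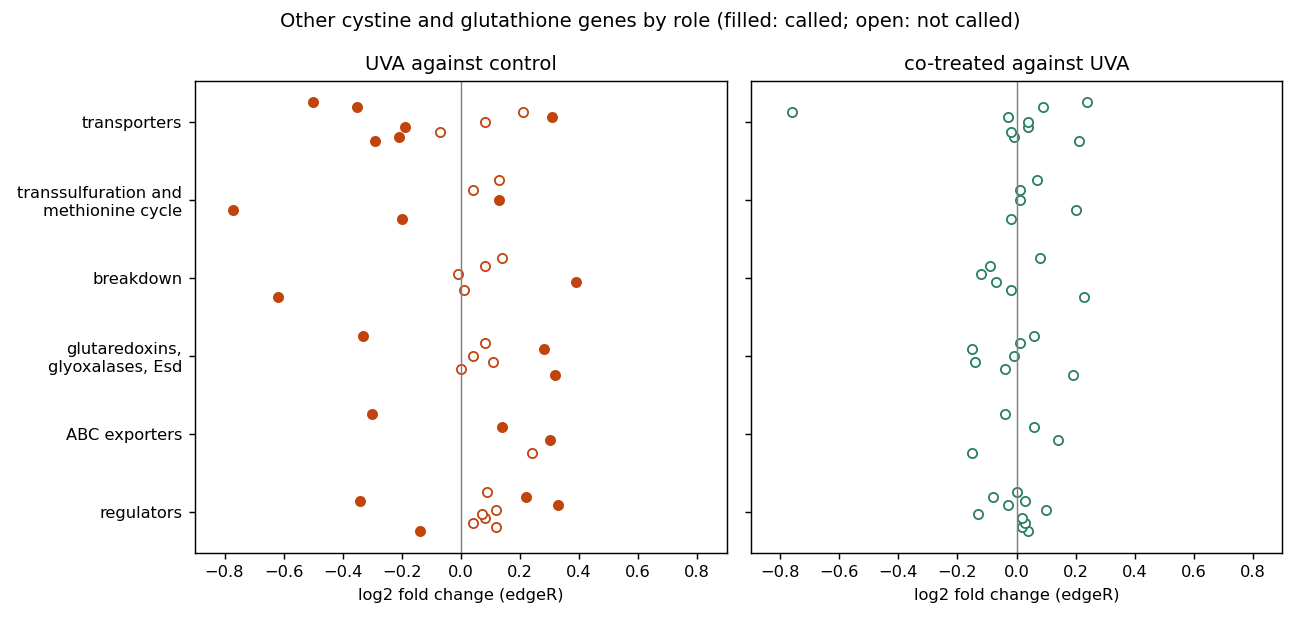
Log2 fold change (x axis) of the 41 tested genes listed by role (rows), in UVA against control (left) and co-treated against UVA (right); filled points were called and open points were not. On the left, 21 points are filled on both sides of 0, with Cth at -0.77 the lowest; on the right none is filled.

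The genes nearest to Slc7a11 in pattern were sought among 9108 tested genes with a mean of at least 10 CPM, by the root mean square difference of log2 CPM, centred on each gene's mean over the 9 libraries. Slc7a11 itself had a root mean square spread of 0.271 around its mean. Among the nearest were Speg, a kinase of striated muscle, at 0.147, Zfp760 at 0.148, Pik3cd, a catalytic subunit of phosphoinositide 3-kinase, at 0.149, and the glycine transporter gene Slc6a9, at 0.153. Speg had 20.5, 20.5 and 20.2 CPM in co-treated libraries, 14.8, 15.1 and 15.7 CPM in UVA libraries, and 23.5, 22.6 and 21.3 CPM in control libraries. For Slc6a9 the values were 54.4, 48.5 and 42.0 CPM in co-treated, 45.6, 42.5 and 34.4 CPM in UVA, and 59.6, 55.4 and 57.9 CPM in control libraries. Both were lowest in UVA cells, Speg without overlap of the co-treated and UVA libraries and Slc6a9 with it. In both genes every co-treated library lay below every control library, unlike in Slc7a11, where those groups overlapped. Because such genes were picked for likeness to Slc7a11 over these same libraries, the shared low in UVA cells largely follows from the choice.

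**Figure D4:**
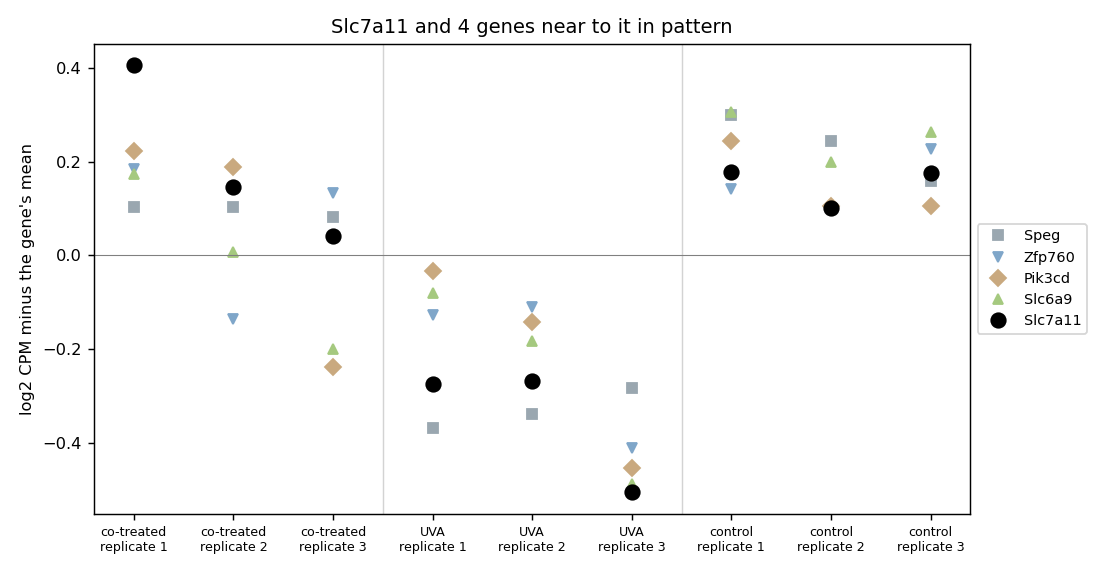
Log2 CPM minus the gene's own mean (y axis) of Slc7a11 (black) and of these 4 genes in each library (x axis, co-treated, UVA and control). All points lie below 0 in UVA libraries and above 0 in control libraries; in co-treated replicate 1 Slc7a11 lies above the other 4. The 4 genes were picked for likeness to Slc7a11 in these libraries.

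The annotation columns of the authors' table place Gclc, Gclm, Gss and Gsr, 4 of the 7, in the KEGG pathway of glutathione metabolism, which holds 121 genes of the table. Slc7a11, Gclc and Gclm are 3 of the 87 genes under ferroptosis, the iron-dependent death by lipid peroxidation that glutathione holds back through glutathione peroxidase. Glrx and Abcc1 were in neither.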

How the data were processed

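RNA of 9 NIH/3T3 libraries in 3 groups was sequenced. Per the labels' protocols, RNA came from the TransZol Up Plus kit and 2 ug went into VAHTS Universal V8 libraries. The build mm39, HTSeq 0.6.1, HISAT2 2.2.1, cutadapt 1.9.1 and bcl2fastq 2.20.0.422 are listed, without roles, per the submitters' processing notes; strand use in counting is not given in the sources used here. Per the file headers, the authors deposited raw counts and FPKM for 56691 genes. From the values, the deposited FPKM is the count scaled for exonic length and library total (510219 of 510219 values within 0.01). Columns headed NC were taken as control, since the others match their titles by name.

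Counts were fitted with edgeR 4.0.16 (filterByExpr, TMM, quasi-likelihood F-test, two-sided) in R 4.3.3, on group alone with all 9 libraries. A gene was called where its p, adjusted by Benjamini-Hochberg over the 14151 tested genes of a comparison, was below 0.05. Intervals are 95%. The script was tested on simulated data. Alternatives used DESeq2 1.42.0, limma 3.58.1 on log2(FPKM + 1) or log2(FPKM + 0.1), RLE and upper quartile scaling, no filter, only 2 groups, a replicate block and each library left out; limma on log2(TPM + 1) was chosen after seeing the data. Replicates differed beyond counting noise in every pair. The members and lists were chosen with earlier results of these data known. Named genes are the members, Slc3a2, Nfe2l2, Keap1, Bach1 and Atf4, up to 3 genes per role list by p in UVA against control and 2 in co-treated against UVA, genes overlapping a member, and the 5 nearest to Slc7a11, of which 1 is not reported here; the Ggt genes, Cbs and the marker genes were named after their values were seen.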

Additional observations from a re-analysis of the deposited data

How the results depend on the processing

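Of 315 recomputed fold changes of the 7 genes, 295 kept direction and status, called or not called, 13 lost a call, 4 gained one and 3 changed sign. The 295 thus include results that were not called in the main fit and stayed so, as for Glrx, and are not a count of calls that held. Those 3 were near 0: Glrx in co-treated against UVA at -0.013 without co-treated replicate 2 (0.052 at the highest), Slc7a11 in co-treated against control at -0.059 without co-treated replicate 1 (0.13 at the highest), and Abcc1 in co-treated against control at -0.003 with limma on log2(TPM + 1).

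Total counts of calls, both directions together, moved by over 1.5 times in co-treated against UVA and in no other comparison; by direction, the 2 of the 7 genes called lower in UVA against control became 1 without control replicate 2 or UVA replicate 2. Over all genes, 5 were called; no filter gave 29, and limma on log2(FPKM + 1), log2(FPKM + 0.1) or log2(TPM + 1) gave 0 (494, 498 and 691 higher and 441, 443 and 296 lower at an unadjusted p under 0.05). With 1 library left out the count ran from 1 (without co-treated replicate 2) to 22 (without UVA replicate 3), with 2 without co-treated replicate 3 and 8 without UVA replicate 2. Of the 7 genes, 1 was called; no filter gave 2, the 3 limma fits gave 0, and left-out libraries gave 1 to 3, the 3 without UVA replicate 3. Of the other pathway genes 0 were called; no filter and DESeq2 gave 1, and left-out libraries 0 to 1. The causes were not tested beyond what each setting changes.

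With the replicate block, which assumes that equal numbers share something the labels do not state, co-treated against UVA called 19 genes, 2 of the 7 (Slc7a11 and Gclc) and 1 other pathway gene (Esd). Deviations of 9 same-numbered pairs had correlations of -0.00871 to 0.0756, so the numbers were not taken as pairs, although each UVA library correlated best with the co-treated library of its own number, a hint from the data and not the design. With limma on log2(TPM + 1) the split in UVA against control was 1182 higher and 2287 lower, against 2078 and 2064, so that the higher calls moved by over 1.5 times. The looser core TGANNNNGC was in 2 of the 4 promoter windows, against 1, and in 41.3% of all windows; 1 of its matches in Slc7a11 shares letters with the ATF4 core. The 7 genes had no fewer than 406 counts in any library; of the 56 listed by role, 15 had too few counts to test.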
